A study of Drosophila melanogaster with 2 samples.

Results

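Of 30000 pooled candidate regions from a chromatin immunoprecipitation sequencing (ChIP-seq) experiment on Drosophila melanogaster embryos, 696 (2.32%) had their summit in an annotated 3′ UTR, outside promoters. They were chosen by position alone. The summit had to lie inside a 3′ UTR of the Ensembl BDGP6 annotation, in no 5′ UTR or coding sequence, and more than 500 bp from every transcription start site (TSS), with transposable element genes ignored. The experiment holds 1 group with 2 biological replicates, so nothing could be compared between conditions. The embryos were 0 to 16 hours old, of both sexes, and were taken as whole organisms from a stable transgenic line. That line carries CG9437 with green fluorescent protein fused to its C terminus, and the labels tie the insertion to hng1. Chromatin was sonicated to 200 to 800 bp, and per the deposited manifests both replicates share 1 control alignment. Signal from whole embryos is an average over all their cells, and whether the tagged protein replaced the untagged one is not given in the sources used here. A free-text note describes both samples as input controls. The assay, the antibody and the file types given for them are those of a transcription factor ChIP, which is how the lists are read here. Read numbers are not given, so the depth is unknown.

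The 3′ UTR is the stretch of a messenger RNA between the stop codon and the poly(A) site, and it is best known as the place where RNA-binding proteins and microRNAs control translation, stability and localization. ChIP measures protein on chromatin, so a summit there marks DNA near the end of a gene, and in the compact fly genome such DNA often also lies close to the next gene. hng1 encodes a protein of the MADF-BESS family, whose MADF domain binds DNA and whose BESS domain binds other proteins. Adf1 is the best-known member of this family in Drosophila.

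The strongest summits in 3′ UTRs lay in fs(1)K10, needed in the female germline for the dorsoventral axis of the egg, and in ChAT, which makes acetylcholine. The next were in the cuticle protein gene Cpr47Ea, in CG10492, and in Sxl, the switch gene of sex determination. The 6-base word ACGTAA, in capitals below, lay within 50 bp of 24 of the 74 final summits in 3′ UTRs, among them 3 of the 12 strongest. Each line gives the 30 bases around the site nearest the summit, read 5′ to 3′ on the strand that spells the word, in the RefSeq genome of the same release as dm6. They are among the 10 strongest final peaks with the word, and they show what surrounds it.
fs(1)K10, chrX:2244934-2244963, plus strand: taacctagcgtaACGTAAagtagagtattg
CG10492, chr2L:19057986-19058015, minus strand: gcgtaatggcttACGTAAtggttctttagc
CG34417, chrX:6584505-6584534, minus strand: taacgtaacgcaACGTAAgggggagtaaat
Eip75B, chr3L:17951441-17951470, minus strand: caattaagcgtaACGTAAcgtaaagtatat
Pp2B-14D, chrX:16557251-16557280, minus strand: aaccaacccataACGTAAcccataacctag
dsx-c73A, chr3L:16423208-16423237, minus strand: acgtctagcgtaACGTAAcgtaattagcta
Several of these lines hold the 5-base core CGTAA more than once, beside or overlapping the capitals. Of the 6 strongest host genes, ChAT, Cpr47Ea, Sxl and Ziz had no ACGTAA at their summit. Cpr47Ea had no CGTAA either, and the nearest copy of CGTAA in the other three is shown in capitals instead.
ChAT, chr3R:18731463-18731492, minus strand: aaacacaactttCGTAAcgaaaagtattgc
Sxl, chrX:7074707-7074736, minus strand: atgttcgtagtcCGTAAaactacacaagaa
Ziz, chr2L:7473488-7473517, minus strand: gtaatgcgttatCGTAAccacaacgtagtc

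Most candidates in 3′ UTRs were weak, and a small number were among the strong regions of the list. Signal is the authors' value for each region. Its scale is not stated, and values of different lists are set side by side below as deposited, with no scaling between them. Its median over the 696 summits was 54.7 (95% interval from order statistics 52.6 to 57.2), with quartiles at 44.9 and 81.2 and a range of 38.0 to 1916. The median over all 30000 candidates was 66.6. By class it was 97.3 at promoters, 61.3 in introns, 57.7 in intergenic sequence and 47.5 in coding exons. The summits in 3′ UTRs thus sat between intergenic and coding sequence in the order of medians. Intergenic summits (56.9 to 58.6) and those in 3′ UTRs had intervals that overlapped slightly.

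The final list, which the authors kept by irreproducible discovery rate, held 74 of the 696 (10.6%; exact Clopper-Pearson 95% interval 8.44 to 13.2). Over all candidates the share was 20.3%, and over the candidates more than 500 bp from every TSS it was 13.6%. Introns had 15.2% (14.6 to 15.8), intergenic sequence 11.8% (11.0 to 12.7), coding exons 3.31% (2.15 to 4.84) and promoters 34.7%. The share in 3′ UTRs was close to that of intergenic sequence, and no test of these differences was made. The 74 peaks made up 1.21% of the final list. The final list was the 6091 candidates of highest signal, so membership restates signal. The weakest final summit in a 3′ UTR was in Slc45-1, a sugar transporter gene, at 152, and the strongest summit left out was in CG34417 at 145. Of the 74, 2 were among the 200 strongest candidates and 11 among the 1000 strongest, and the best rank was 157. For scale, the whole final list holds those 200 and 1000 among its 6091 peaks. Introns had 20 and 194 among 1878 final peaks. Within the final list their median signal was 274, beside 258 for all final peaks.

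**Figure D1:**
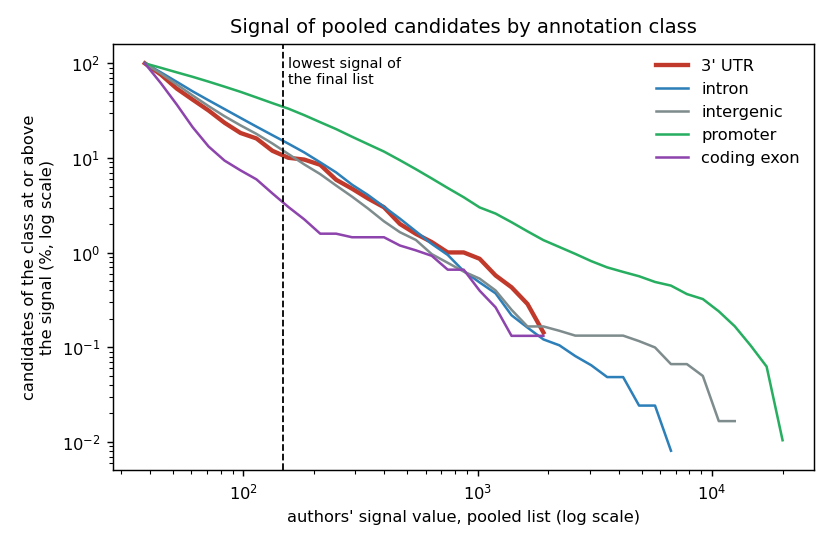
Share of candidates at or above each signal value (percent, log scale) against the authors' signal in the pooled list (log scale), 1 line for each of 5 annotation classes, with a dashed line at the lowest signal of the final list. The line of 3′ UTRs lies between those of coding exons and introns at low signal and meets the intronic line above the dashed line. At the plotted signal values it ends at 1907, as does the line of coding exons. The lines of introns, intergenic sequence and promoters reach further.

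Counts of summits were also set against the length of each class. The 3′ UTR sequence that met the rule came to 5.93 Mb, with 117 candidates per Mb (exact Poisson 95% interval 109 to 126) and 12.5 final peaks per Mb (9.80 to 15.7). Over all classes the densities were 224 and 45.5 per Mb. Introns had 234 and 35.5 per Mb, intergenic sequence 165 and 19.5, coding exons 41.1 and 1.36. Per base, 3′ UTRs therefore held fewer summits than introns or intergenic sequence and more than coding exons, with intervals that did not overlap. These intervals count regions, which are not independent replicates.

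The strongest members came from genes of unlike function, and the plot of the 12 strongest shows their values in every list. fs(1)K10 had a pooled signal of 1916, with 784 in replicate 1 and 1143 in replicate 2. Its summit lay 401 bp past the stop codon in a 3′ UTR of 1489 bp, at position 2244953 of chromosome X (dm6), exonic in every transcript that spans it. The odorant receptor gene Or2a follows on the same strand after a gap of 189 bp, and its start was 1278 bp away. A second final peak lay in the same 3′ UTR, with 631 in the pooled list, 281 in replicate 1 and 415 in replicate 2.

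ChAT had 1896 in the pooled list, 1046 in replicate 1 and 866 in replicate 2. The summit lay 546 bp past the stop codon at position 18731473 of 3R, 295 bp beyond one annotated end of ChAT and 871 bp before the last one, so it was in the 3′ UTR of the longer forms. CG14302 follows on the same strand. Another candidate in the 3′ UTR of ChAT was not in the final list, at 114. Cpr47Ea had 1563 in the pooled list and 815 in replicate 2. Replicate 1 had no summit within 100 bp, and its nearest was 103 bp away with 779. The end of Or47a, an odorant receptor gene on the opposite strand, was 26 bp from the pooled summit, the closest such end among the 12 strongest.

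CG10492 had 1230.4 in the pooled list, 563 in replicate 1 and 685 in replicate 2, and its second peak had 534, 188 and 152. Downstream on the same strand lies Phlpp, which encodes a protein phosphatase. Sxl had 1139.9, 452 and 688, with the summit 4577 bp past the stop codon and 176 bp before the end of a 3′ UTR of 4753 bp. Ziz, which encodes a guanine nucleotide exchange factor of the DOCK family, had 1043, 505 and 554. Its 3′ end faces that of CG6055 across a gap of 19 bp. These 3 genes had a summit matched in both replicates at each of their final peaks.

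Epac, whose protein activates Rap GTPases in response to cyclic AMP, held a pair of final peaks, with 963 and 744 in the pooled list. Replicate 1 gave 549 and 393 there and replicate 2 gave 434 and 339. Vinc encodes vinculin, an actin-binding protein of cell adhesion sites. It had 739 in the pooled list, 266 in replicate 1 and 906 in replicate 2. stas had 617, 328 and 288. Among these 12 summits, 11 were found in both replicates and 1, in Cpr47Ea, only in replicate 2.

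**Figure D2:**
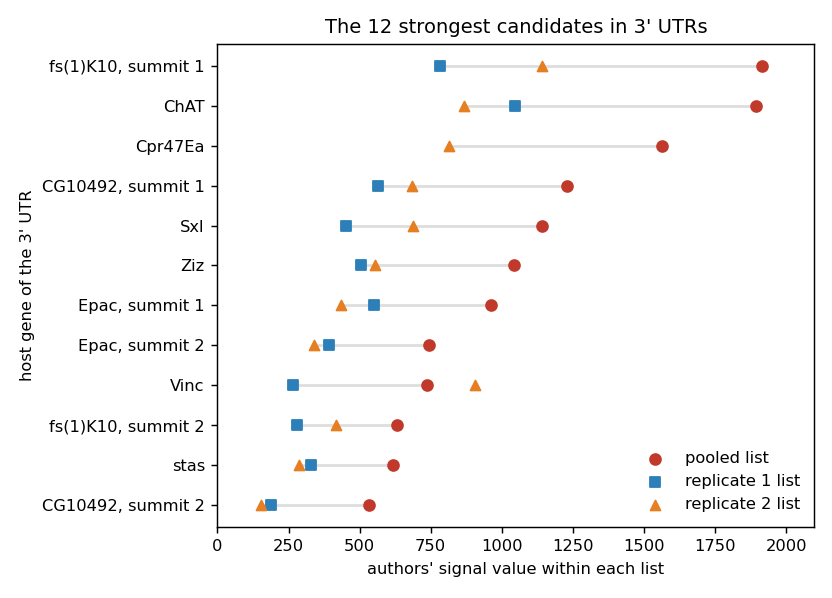
Signal of the 12 strongest summits in 3′ UTRs, by host gene, in the pooled list (circles), replicate 1 (squares) and replicate 2 (triangles), as deposited and with no scaling between lists. Most pooled values lie near the sum of the replicate values. Vinc, with a sum 1.59 times its pooled value, and the second summit of CG10492, with 0.637 times, stand apart, and Cpr47Ea has no matched summit in replicate 1.

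A summit was taken as found in a replicate when that replicate's own list had a summit within 100 bp. All 74 final peaks were found in replicate 2 and 70 in replicate 1, which gives 70 in both (94.6%; 86.7 to 98.5). Over all final peaks the share was 92.0%. The final list holds the strongest candidates of the pooled replicates, so this share follows in large part from that choice. Of all final peaks, 465 were found in 1 replicate only and 23 in neither. Of the 4 without a partner in replicate 1, Cpr47Ea, CG9837 and bol had a summit 103 to 156 bp away. Cals, which encodes calsyntenin, is on chromosome 4. It had 443 in the pooled list and 210 in replicate 2, and the nearest summit of replicate 1 was 11327 bp away. Recovery was much lower among the weak members. Of the 622 outside the final list, 149 (24.0%; 20.7 to 27.5) were found in both and 105 (16.9%) in neither. Over all 696, 219 (31.5%; 28.0 to 35.1) were found in both, beside 45.5% over all candidates.

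At the 70 final peaks found in both, the signal of replicate 2 over that of replicate 1 had a median of -0.02 on the log2 scale, with an SD of 0.64 across peaks. The Spearman rho between the replicates was 0.70 over these 70 peaks, which share their libraries and control, and 0.76 over the 5603 final peaks of all classes found in both. The median log2 ratio over those 5603 peaks was -0.23. The ratio of deposited values also holds any difference in scale between the lists. The highest ratios were at Vinc, at E2f2, a repressor E2F of the cell cycle, with 444 pooled, 263 in replicate 1 and 1181 in replicate 2, and at aay, a phosphoserine phosphatase gene, with 222, 199 and 590. The lowest ratios belonged to Slc45-1 (104 and 48.1), Myd88 (106 and 51.3), the adaptor of the Toll pathway, and by (204 and 111), which encodes tensin. All of the 3 highest had a stronger pooled summit nearby, of 2985 at 249 bp (Vinc), 5770.1 at 297 bp (E2f2) and 2167 at 251 bp (aay). The matched replicate 2 summits lay 72, 73 and 37 bp from the members and 177, 224 and 214 bp from those stronger summits. None of the 3 lowest had a stronger candidate within 1 kb. The part of the neighbouring summits in these ratios was not tested.

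**Figure D3:**
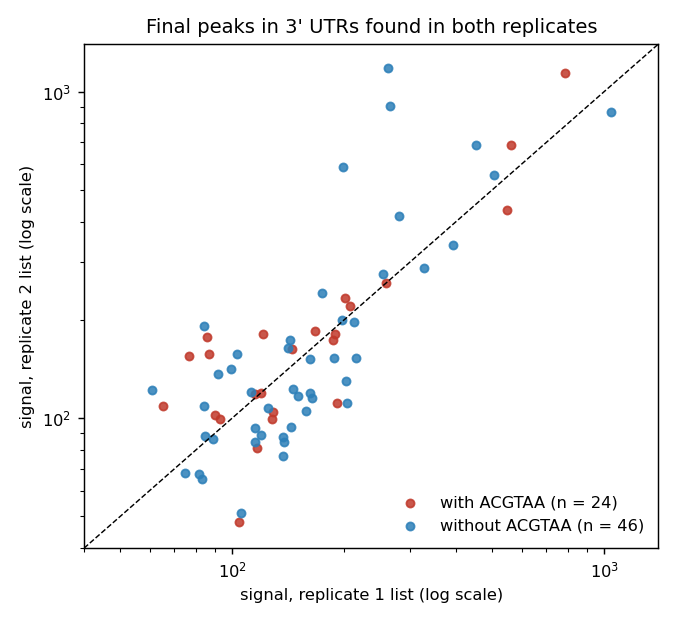
Signal in replicate 2 against replicate 1 (both log scales) for the 70 final peaks in 3′ UTRs found in both, coloured by whether ACGTAA lies within 50 bp of the pooled summit, with equality as a dashed line. The points scatter about the line, and the 3 farthest above it, E2f2, Vinc and aay, lack the word.

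The word ACGTAA lay within 50 bp of the summit, on either strand, in 24 of the 74 final peaks in 3′ UTRs (32.4%; 22.0 to 44.3). Among the 622 other members it was in 44 (7.07%; 5.19 to 9.38). In non-overlapping windows of the same 101 bp that tile the eligible 3′ UTR sequence it was in 4.50% of 53143. Over all final peaks the share was 10.2% and over all candidates 5.26%. Final peaks in introns had 8.09% (6.90 to 9.42), in intergenic sequence 9.14% (7.13 to 11.5), at promoters 11.0% (9.91 to 12.1), in coding exons 24.0% (6 of 25; 9.36 to 45.1) and in 5′ UTRs 18.2% (6 of 33; 6.98 to 35.5). The interval of 3′ UTRs lay above those of introns, intergenic sequence and promoters and overlapped those of coding exons and 5′ UTRs. The mean G+C content of final windows was 37.1% in 3′ UTRs, 32.4% in introns, 32.9% in intergenic sequence and 35.3% at promoters. It was 52.9% in coding exons and 41.5% in 5′ UTRs, and its part in these shares was not tested. The word was followed because it led an earlier search over the whole final list, which contains these 74 peaks, so its presence among them is not independent evidence. A match is a description of the sequence, and binding to it was not tested.

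Read the other way, 24 of the 68 members with the word were final (35.3%; 24.1 to 47.8), beside 50 of the 628 without it (7.96%; 5.97 to 10.4). Their median signals were 80.8 (65.1 to 131) and 53.5 (50.9 to 55.4). In introns the final shares with and without the word were 26.9% and 14.6%, in intergenic sequence 25.3% and 11.2%, and at promoters 57.7% and 33.1%. Members with and without the word had mean G+C contents of 36.3% and 38.4% in the 101 bp window. Final shares were thus higher with the word in each of these classes. Without it, the interval of 3′ UTRs lay below those of introns (14.0 to 15.3) and intergenic sequence (10.4 to 12.1), which it nearly reached.

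Across ranks the classes followed different courses. Among members, the word was at 3 of 11 summits ranked 1 to 1000, at 9 of 28 from there to rank 3000 (32.1%; 15.9 to 52.4) and at 12 of 35 from there to rank 6091 (34.3%; 19.1 to 52.2). Below that it was at 17 of 173 (9.83%) and at 27 of 449 (6.01%). In introns and intergenic sequence the shares for the same ranks were 20.1%, 8.37%, 6.30%, 4.58% and 3.46%, and at promoters 24.0%, 8.74%, 6.51%, 5.22% and 3.30%. In both bins from rank 1000 to 6091 the intervals of 3′ UTRs lay wholly above those of introns with intergenic sequence and of promoters. In the 1000 strongest the interval of 3′ UTRs (6.02 to 61.0) covered both. Coding exons and 5′ UTRs, whose final peaks had intervals overlapping that of 3′ UTRs, were not split by rank. The mean G+C content was 38.1% (SD 7.18) in final windows with the word, 36.6% (SD 9.38) in those without it and 35.3% over the tiled 3′ UTR windows. Its part in the word counts was not tested.

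**Figure D4:**
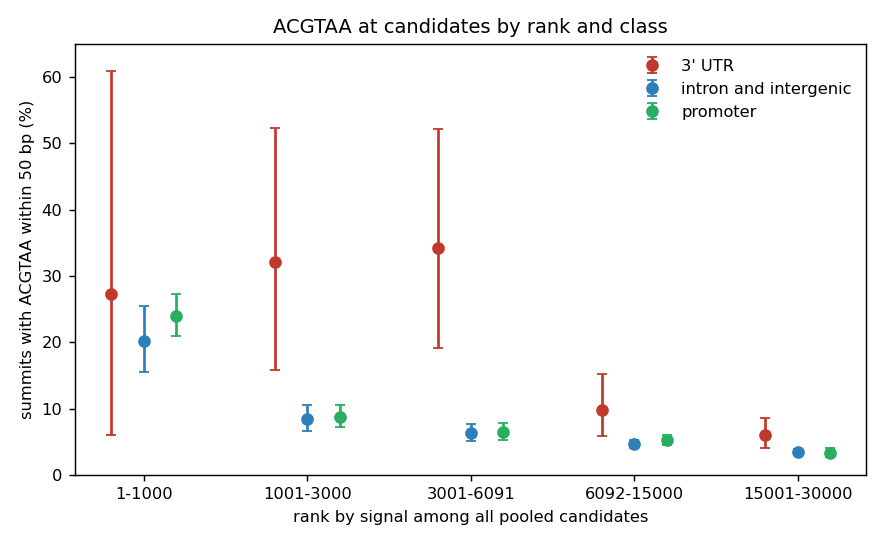
Share of summits with ACGTAA within 50 bp (percent, points, with exact 95% intervals as bars) by rank of signal among all pooled candidates, for 3′ UTRs, for introns and intergenic sequence together, and for promoters. In 3′ UTRs the share stays between 27.3% and 34.3% through rank 6091 and then drops to 9.83%. In introns with intergenic sequence and at promoters it drops after rank 1000.

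The nearest site lay within 20 bp of the summit in most final peaks with the word. The intervals of that share in final and other members overlapped. The centre of the nearest site was a median of 12.5 bp from the summit in the 24 final peaks and 22.5 bp in the 44 others, and within 20 bp in 16 of 24 (66.7%; 44.7 to 84.4) and 18 of 44 (40.9%; 26.3 to 56.8). It was spelled on the strand of the host gene in 11 of 24 and 25 of 44, so both orientations occurred. Sites that did not overlap numbered 2 or more in 7 of 24 final peaks and 7 of 44 others. CG34417 had 4 and fs(1)K10 had 3 such sites. More sites in a window can by number alone bring the nearest one closer to the summit, and this was not tested. Counting from 1 at the first base of the word, base 8 was G in 15 of 24 final sites (62.5%) and 11 of 44 others. No flanking position of the final sites had a base with a higher share, and this position was named with all of them in view.

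The site continued as ACGTAACG, as in the sequences of Eip75B and dsx-c73A above, in 6 of 24 final sites and 3 of 44 others. After these flanks had been seen, copies of the core CGTAA, which every ACGTAA contains, were counted. At least 1 copy was within 50 bp in 31 of 74 final peaks (41.9%; 30.5 to 53.9), 102 of 622 others (16.4%) and 13.3% of the tiled windows. Over all final peaks the share was 18.6%. At least 2 copies were in 16 of 74 (21.6%; 12.9 to 32.7), 17 of 622 (2.73%) and 1.11% of windows, beside 4.15% of all final peaks. CARPB, a carbonic anhydrase-related gene, had 5 copies and fs(1)K10 had 6. Since the core was picked from these peaks, these shares support nothing beyond the description of them.

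The other words searched had overlapping intervals in final and other members. TATCGATA, the palindrome bound by Dref, was in none of the 74 or the 622 and in 0.288% of windows, and a count of 0 in 74 allows a share of up to 4.86% (exact interval). Its core ATCGAT was in 3 of 74, 21 of 622 and 3.55% of windows. The E-box CACGTG was in 1 of 74, 6 of 622 and 0.677% of windows. The GATA-factor word TGATAA was in 5 of 74, 39 of 622 and 7.35% of windows. GAGAG was in 9 (12.2%; 5.71 to 21.8), beside 13.2% (10.6 to 16.1) of the other members and 5313 of the 53143 windows (9.74% to 10.3%), so its share in the other members lay above the windows. The poly(A) signal words were read on the strand of the host gene only and were not counted in the windows. AATAAA was in 6 of 74 final windows and 75 of 622 others (12.1%), and ATTAAA in 6 and 51. These counts say only whether the letters are in the window.

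Final peaks were found at every distance from a start site that the rule allows. The final share was 8.55% of 117 members up to 1000 bp from the nearest TSS, 13.5% of 215 from there to 2000 bp, 8.97% of 234 from there to 5000 bp and 10.8% of 130 beyond. Introns gave 23.9%, 19.3%, 14.0% and 10.9% for the same distances, and intergenic sequence 17.4%, 15%, 11.4% and 8.15%. The shares of introns and intergenic sequence fell with distance, whereas those of 3′ UTRs had overlapping intervals throughout (4.17 to 15.2 in the nearest bin, 6.01 to 17.4 in the farthest). In the nearest bin the interval of 3′ UTRs lay below that of introns (21.9 to 26.0). Just inside the 500 bp limit were cpo (60.6), CG44253 (63.3) and RpS23 (56.3), all within 10 bp of it. Just outside, as near, were MsrA (53.7), CG42854 (47.2) and CG32037 (69.5). None of these 6 was final.

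Against the ends of the host genes, density was lowest right at the end. There were 90.1 candidates per Mb (75.0 to 107) within 100 bp of an annotated host end and 123 (105 to 143) at 101 to 250 bp. Beyond 1000 bp there were 136 (112 to 164). Final peaks were densest at 101 to 250 bp, with 18.7 per Mb (12.1 to 27.5) from 25 peaks, beside 7.93 (3.96 to 14.2) within 100 bp. These intervals overlapped. Along the 3′ UTR, the first, middle and last parts of equal length held 182, 241 and 273 members, of which 14, 28 and 32 were final. The final shares were 7.69% (4.27 to 12.6), 11.6% (7.86 to 16.4) and 11.7% (8.16 to 16.1), with overlapping intervals. The eligible sequence in each part was not measured, so these counts are not densities. Of the 696, 616 (88.5%) were exonic in every transcript spanning them, and such sequence was 89.3% of the eligible 3′ UTR. Of those 616, 65 were final (10.6%; 8.24 to 13.3), beside 9 of the other 80 (11.25%; 5.28 to 20.3).

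The end of another gene was within 500 bp of 99 members (14.2%; 11.7 to 17.0). Such sequence was 21.0% of the eligible 3′ UTR, and its density was 79.7 candidates per Mb (64.7 to 97.0), beside 120 (103 to 139) from there to 2000 bp and 131 (119 to 144) further away. Candidates were thus sparser where gene ends meet, by intervals that did not overlap between the nearest and each farther bin. For final peaks the densities were 10.5, 9.66 and 14.5 per Mb, with overlapping intervals. Of the 99 neighbouring ends, 93 were on the opposite strand and 6 on the same strand, with 13 and 0 final peaks. Myd88 and Drep2, whose ends are 1 bp apart, and REG and mew, which abut, are examples of facing genes with a final peak near the shared end (155 and 209).

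**Figure D5:**
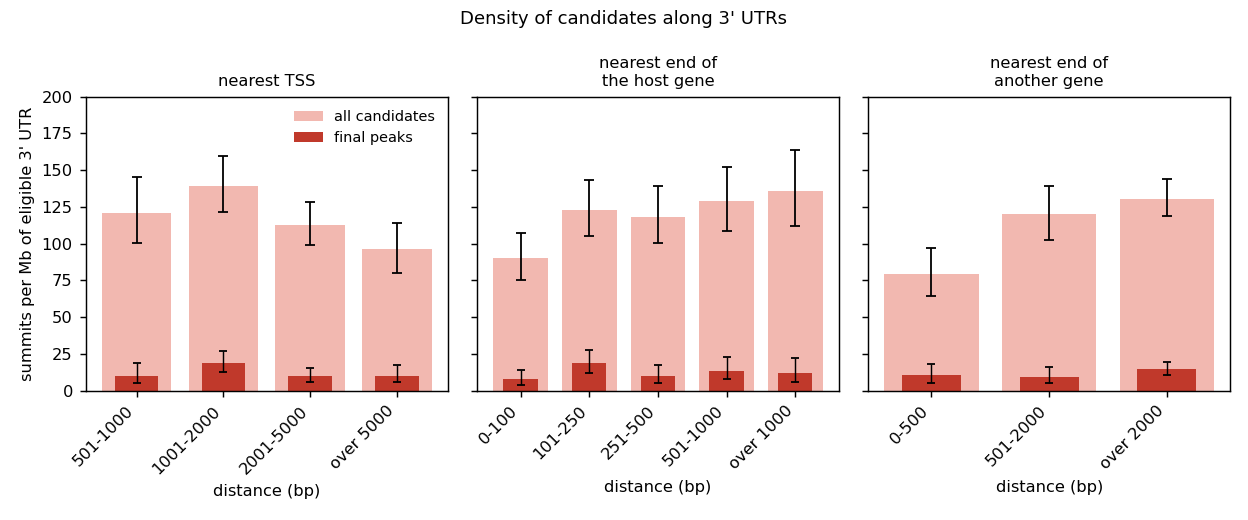
Summits per Mb of eligible 3′ UTR (wide bars, all candidates; narrow bars, final peaks; lines, exact Poisson 95% intervals) by distance in bp from the nearest TSS, the nearest end of the host gene and the nearest end of another gene. Candidate density is lowest within 100 bp of the host end (90.1) and within 500 bp of another gene's end (79.7).

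The next gene beyond the host's end was on the opposite strand, with facing ends, for 318 members, and on the same strand for 305. The other 73 summits lay inside the body of another gene. The final shares were 11.0% (7.79 to 14.97), 10.5% (7.29 to 14.5) and 9.59% (3.94 to 18.8), which overlap almost wholly, and the median signals were 54.6, 53.9 and 61.0. The strongest of each kind were Cpr47Ea, fs(1)K10 and CG33307, the last with 406 inside CenG1A. dsx-c73A (346), inside CG33158, and Nepl11 (293), inside cpx, followed among the overlapping ones. Among final peaks ACGTAA was in 6 of 35 with a facing neighbour (17.1%; 6.56 to 33.6), 14 of 32 with a neighbour on the same strand (43.8%; 26.4 to 62.3) and 4 of 7 inside another gene. Those intervals overlap, and the difference was not tested. In 17 cases the summit was also in a 3′ UTR on the opposite strand, and 1 of these was final, in Coq2 and CG7483 (218).

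The nearest TSS belonged to a gene whose 3′ UTR held the summit, the host or another, for 249 members. Otherwise it belonged to the next gene for 353 and to a further gene for 94. These groups held 31, 36 and 7 final peaks. A stronger candidate lay within 1 kb of 13 of the 74 final peaks (17.6%), beside 18.5% of all final peaks, and of 195 of the 622 others (31.4%), beside 36.2% of all non-final candidates. The order of final and other members here follows from the choice of the final list by signal. A final peak at a promoter lay that near to 4 and 16 of them. Of the 66 host genes of final peaks, 27 (40.9%; 29.0 to 53.7) also had a final peak at one of their own promoters. Among the 463 other host genes the share was 37.6% (33.2 to 42.2), and among 13534 protein-coding genes with a 3′ UTR it was 25.9% (25.1 to 26.6). In those 66 genes the strongest promoter candidate was stronger than the summit in the 3′ UTR in 16, weaker in 35 and absent in 15. These genes were chosen by the signal in the 3′ UTR and not at the promoter, so that order follows in part from the choice. fs(1)h, which encodes a BET bromodomain protein, had 3578 at its promoter and 251 and 226 in its 3′ UTR. At fs(1)K10 the promoter had 260 and the 3′ UTR 1916.

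The 696 members fell in 529 host genes, of which 122 held 2 or more. fs(1)h and CG1888 held 7 each, with 2 and 0 final peaks. A pair of final peaks was found in 8 genes: fs(1)K10, CG10492, Epac, alpha-Man-IIa, Inx2, Eip75B, inv and fs(1)h. In 7 of them the summits were within 250 bp of each other, and the smallest gap was 203 bp. The closest summits anywhere in the pooled list were 199 bp apart. In those 7 pairs the regions overlap and cannot be counted as separate sites. The summits of fs(1)h were 1933 bp apart, in regions that do not overlap. Keeping only the strongest summit of each host left ACGTAA in 24 of 66.

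Host genes were also set against 7 lists of genes. Any 3′ UTR member was found in 3.91% of protein-coding genes with a 3′ UTR. Among RNA-binding and translational regulators, 13 of 61 genes (21.3%) were hosts, with 21 members of which 3 were final. These include Sxl and bol, a regulator of male meiosis, the latter with 226 in the pooled list and 196 in replicate 2. Developmental transcription factors had 13 hosts of 97, with 20 members and 3 final. Among them were pros, which sets neural fates (286 pooled, 164 and 115 in the replicates), and inv, the paralog of engrailed (235, 115 and 119). The lists were not compared per base of 3′ UTR.

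The remaining lists had from 0 to 2 final peaks. Adhesion and guidance genes had 10 hosts of 80, with 16 members and 2 final peaks (12.5%; 1.55 to 38.3), in Cals and in NetB, which encodes a netrin (269, with 151 and 117). Ion channel and neurotransmission genes had 10 hosts of 70, with 20 members and 1 final peak, that of ChAT. Signalling genes had 8 hosts of 72 and 8 members, and cytoskeleton and muscle genes 9 hosts of 70 and 13 members. Neither list had a final peak, which allows final shares of up to 36.9% and 24.7%, so none of these counts stands apart from the 10.6% of all members. The strongest there were upd3, a ligand of the JAK/STAT pathway, at 87.0, the FGF ligand gene ths at 76.2, Rac2, a small GTPase gene, at 119, and chic, which encodes profilin, at 116. Cytosolic ribosomal protein genes had 2 hosts of 92, RpS26 (108) and RpS23 (56.3), neither final.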

How the data were processed

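Peak lists in narrowPeak form on dm6 were deposited for each replicate, for the replicates pooled (30000 candidates each) and as a final list of 6091. Per the deposited manifests, the sources of the lists are the alignments of the replicates and of a common control. The authors called candidates in each replicate and in the pool. Their aligner, caller and threshold are not stated in the labels or manifests. The authors' signal value (scale not stated) was used to rank and describe regions within its list. Replicate values are printed beside pooled ones, and their log2 ratios given, as deposited and without scaling. The −log10 q values, also deposited, are capped at 4.07 in the pooled list and were not used.

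Summits were placed on Ensembl release 115. A summit took the first class that held it, with promoters before all else, then 5′ UTRs and coding exons, then 3′ UTRs, and last other exons, introns and intergenic sequence. The host is the gene whose 3′ UTR holds the summit (the longest where several do). Tools were Python 3.11.15, scipy 1.17.1, pandas 2.3.3, numpy 2.4.6 and, for plots, matplotlib 3.10.9, and the class, word and matching steps were tested on simulated data. Intervals are exact 95% intervals and cover counting over regions only. No p-value was computed, since there is 1 group.

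The members, lists and words were chosen with earlier results of these data known. Named members were the 12 strongest, the 3 strongest of each arrangement and with ACGTAA, the 3 just inside and outside 500 bp, the 2 strongest of each list, and the 3 highest and lowest replicate ratios. Other genes named were chosen after their values were seen. Alternatives were other TSS distances, protein-coding TSSs, constitutive 3′ UTRs, 1 value per region, stricter final lists, each replicate alone, and other windows and distances.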

Additional observations from a re-analysis of the deposited data

How the results depend on the processing

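The final share kept within its interval under other TSS distances, protein-coding TSSs, constitutive 3′ UTRs and 1 value per region. Without replicate 1 it was 9.97% (86 of 863) and without replicate 2 12.3% (76 of 619), also within that interval. The authors' final list comes from both replicates, and none was given for 1 replicate. Shares without a replicate, also those of the word below, therefore do not repeat the authors' choice. The final share fell to 5.60% when only the upper 3045 final peaks were counted. Without a replicate, the median signal was 29.9 to 31.8 on the scale of the remaining list, and the density 104 to 146 candidates per Mb. With a TSS distance of 250 bp the density was 127 per Mb. Members found in both replicates were 20.8% with summits matched within 50 bp and 43.4% within 200 bp. Another gene's end was within 250 bp of 6.90% and within 1000 bp of 24.9%. ACGTAA was in 5.75% of members with 25 bp to each side and 15.5% with 100 bp. Alternatives chosen after seeing the data split these: with 25 and 100 bp the word was in 23.0% and 43.2% of final and 3.70% and 12.2% of other members, and without a replicate in 26.3% to 29.1% and 5.16% to 7.98%. The final share by TSS distance stayed within its intervals under every alternative run. No paired analysis was possible because there is 1 group. Read depth is unknown, and the 74 final peaks limit every split of them.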

Other observations

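Of the MADF-BESS genes hng1, hng2, hng3 and Adf1, Adf1 alone was a host gene. It had a candidate of 77.2 in its 3′ UTR, with 41.9 in replicate 1 and no summit within 100 bp in replicate 2, and the candidate was not final. A final peak of 239 lay in the 3′ UTR of CG9837, whose end faces that of hng2 across 97 bp, with the end of hng2 1039 bp from the summit. By arm, X held 23 of the 74 final peaks (16.5 per Mb of eligible 3′ UTR; 10.5 to 24.8) and 3L held 9 (8.46 per Mb; 3.87 to 16.1), with intervals that overlap. Both of these genes and the arms were looked at after the other values had been seen. Annotated transposable elements held 3 members, none final.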
